A study of Homo sapiens with 2 samples.

Results

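The genes TPM1, TPM2, CALD1 and VCL encode proteins of the actin cytoskeleton. They held 20 of the 105637 peak summits in the list deposited for a Myocardin chromatin immunoprecipitation experiment. A summit was counted when it lay in the GRCh37 span of one of the 4 genes or within 10 kb of it, and the rule uses no score or count. The start of a gene is the 5′ end of that span, and the peak score is the authors' value for each summit, without a stated unit. The cells were A549, a human lung adenocarcinoma line, with MYOCD stably overexpressed from the pWPI vector and grown in serum. Chromatin of the same line was precipitated with an anti-Myocardin antibody and with IgG, 1 library each, so the control carries the MYOCD overexpression too. The deposited list assigns no summit or score to either antibody and there is no replicate, so no value for IgG can be set beside the summits described here. The labels do not say whether the line is 1 clone or a pool.

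Tropomyosins, the products of TPM1 and TPM2, are coiled-coil proteins that lie along actin filaments and govern the access of myosin. Caldesmon, the product of CALD1, binds actin, tropomyosin and myosin and restrains actomyosin activity in smooth muscle and non-muscle cells. Vinculin, the product of VCL, joins actin filaments to adhesion sites through talin and to adherens junctions through catenins. These genes are known as targets of the serum response factor, which binds the CArG box and recruits Myocardin, a transcriptional coactivator of muscle genes.

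The start of VCL and the start of TPM2 each had a summit within 372 bp, and the RefSeq sequence of the 250 bases before each start is shown because Myocardin is known to reach promoters through the CArG box. They are from GRCh38.p14, chr10:73997866-73998115 on the plus strand for VCL and chr9:35690057-35690306 on the minus strand for TPM2. Capitals mark the GC box, GGGCGG or its reverse complement CCGCCC, which is bound by Sp1-type factors.

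VCL: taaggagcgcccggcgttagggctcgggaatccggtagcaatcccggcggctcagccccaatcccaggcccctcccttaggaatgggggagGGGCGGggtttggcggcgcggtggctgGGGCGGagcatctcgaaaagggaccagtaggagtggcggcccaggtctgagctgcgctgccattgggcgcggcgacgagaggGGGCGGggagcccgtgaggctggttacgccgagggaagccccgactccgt

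TPM2: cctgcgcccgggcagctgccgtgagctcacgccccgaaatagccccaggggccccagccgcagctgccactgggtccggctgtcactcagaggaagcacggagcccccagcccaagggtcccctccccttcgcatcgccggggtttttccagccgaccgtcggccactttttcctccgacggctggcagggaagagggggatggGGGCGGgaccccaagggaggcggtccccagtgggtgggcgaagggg

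No CArG box was found in any of the 8 RefSeq promoter windows of 300 bases that matched the 4 genes by symbol (1 for VCL, 2 for TPM2, 1 for TPM1 and 4 for CALD1). An exact CArG box was present in 1.29% of all 35116 windows of the table. With 1 mismatch allowed, 2 of the 8 windows held a match, against 18.9% of all windows. Both were windows of CALD1, and the matches were gCTTTTTAGG and CCTAAAgAGG, with the mismatched base in lower case. A GC box was present in the 250 bases before the start in 5 of the 8 windows, against 42.6% of all windows. Of these 5, 1 was a window of CALD1. The 2 windows of TPM2 overlap and hold a GC box in common, so they are not separate sites. The stretches shown above held 3 GC boxes for VCL and 1 for TPM2. The G and C content of the 250 bases was 70.4% for VCL, 71.6% and 74.4% for TPM2, 78.4% for TPM1 and from 35.6% to 50.4% over the 4 windows of CALD1, against a median of 58.0% over the table. The window for TPM1 belongs to a start inside the gene. The summits were taken as GRCh37 and these sequences are in GRCh38, so no summit was placed on a base of them. The lack of a match says only that these letters are not in these windows.

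TPM1 (chromosome 15, 63334838 to 63364111, plus strand) carried 3 summits, all close to its 5′ end. The first lay 297 bp upstream of the gene start, at position 63334541, with a peak score of 14.1. The second lay 1001 bp inside the gene at 63335839 and was weak, with a score of 5.14. The third lay 5973 bp inside the gene at 63340811 and was the strongest of TPM1, with a score of 17.3. In the list, 18.3% of summits scored at least as high as the one upstream of the start, 89.3% as the weak one and 10.2% as the strongest. The rest of the gene and the 10 kb beyond it held no summit, and the next one lay 19.2 kb past the 3′ end. On the upstream side the next summit beyond the window was 25.2 kb from the start. RefSeq also gives TPM1 a start inside the gene, so distances to the 5′ end of the span do not speak for that one. How far the third and strongest summit lies from this inner start was not measured, since the builds differ.

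TPM2 (chromosome 9, 35681989 to 35690053, minus strand) is the shortest of the 4 genes and carried 5 summits, of which 2 lay in the gene. The nearest to the start lay 372 bp inside the gene at 35689681 with a score of 8.13, close to the list's median of 8.50. Another lay 1158 bp upstream of the start at 35691211 with a score of 5.86. The other one in the gene lay 4908 bp from the start, at 35685145, with a score of 6.18. These 3 scores were all below the median of the list. The weakest of the 20 summits lay 7630 bp upstream of TPM2 at 35697683, with a score of 3.98. The strongest of the locus lay outside the gene, 6208 bp past its 3′ end at 35675781, with a score of 13.2. In the RefSeq gene order TPM2 lies between TLN1 on its upstream side and CA9 on its downstream side. TLN1 encodes talin, the partner of vinculin, and TPM1 likewise has a talin gene, TLN2, as its upstream protein-coding neighbour. The flanking summits were counted by distance to TPM2 and were not assigned to a neighbour.

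CALD1 (chromosome 7, 134464164 to 134655480, plus strand) carried 4 summits, all inside the gene and none near its start. They lay 13.7, 77.9, 167.4 and 168.2 kb from the start. The strongest of all 20 was at 134542052, with a score of 20.8, and ranked 5550 in the list. The next was at 134632321 with a score of 18.5, and it had a neighbour 757 bp away at 134631564 that scored 9.22. The summit nearest to the start was at 134477896 with a score of 13.2. Upstream of the span no summit lay within 82.5 kb, so that its 5′ end sat in a stretch of 96.3 kb without a summit. Of the 6348 stretches between adjacent summits on chromosome 7, 4.55% were at least as long, and 30.1% of points taken every 1 kb along the chromosome fell in such a stretch. Inside the gene another 89.5 kb were free of summits, between 134542052 and 134631564. RefSeq gives CALD1 several starts in GRCh38, an outermost one and others inside the gene. Which of them the 5′ end of the span matches was not determined, so the distance to it does not speak for the others. Part of the stretch upstream of the span may therefore lie within the gene as RefSeq draws it.

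VCL (chromosome 10, 75757872 to 75879914, plus strand) carried 8 summits, 7 of them in the gene. The one at the start lay 286 bp inside the gene at 75758158, with a score of 14.7, and it was the nearest to a start among the 4 genes. A weak summit lay 7599 bp upstream at 75750273, with a score of 5.85. Downstream of the start, 2 summits at 75769131 and 75776907 had the same score of 10.2, and another at 75796807 scored 11.1. Then followed 50.5 kb without a summit. The last 3 lay 89.4, 97.5 and 103.6 kb from the start, at 75847260, 75855388 and 75861431, with scores of 7.55, 4.82 and 15.3. The strongest of VCL was thus the last one, and the summit at the start came next.

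**Figure D1:**
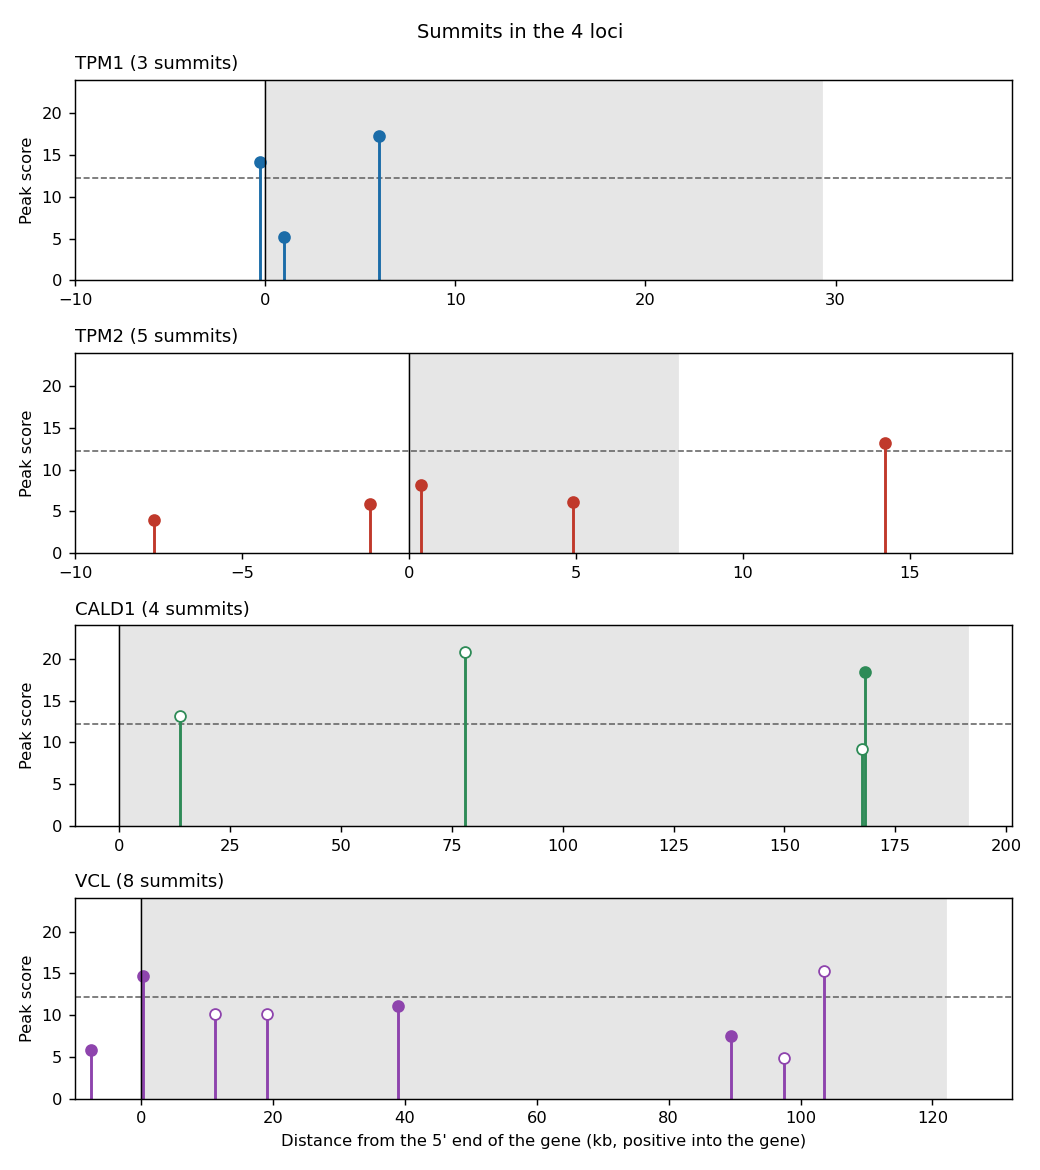
Peak score (vertical axis) of each summit against its distance from the 5′ end of the gene (kb, positive into the gene), with the gene shaded and the dashed line at the score of 12.2 that bounds the top 25% of the list. Open circles are scores shared by at least 150 peaks. TPM1, TPM2 and VCL have a summit within 372 bp of the start, and the first of CALD1 lies at 13.7 kb.

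Of the 4 gene starts, 3 had a summit within 372 bp, and that of CALD1 had its nearest at 13.7 kb. For comparison, the distance to the nearest summit was measured from points every 1 kb along the covered part of each chromosome, where stretches of at least 1 Mb without a summit are left out. A summit at least as near as at the TPM1 start was found at 2.83% of points on chromosome 15, where the median distance was 8.20 kb. For TPM2 the share was 3.20% on chromosome 9 (median 9.70 kb), and for VCL it was 2.56% on chromosome 10 (median 9.14 kb). For CALD1 it was 57.3% on chromosome 7, where the median distance was 10.5 kb. Among points within 1 Mb of each start, the shares were 3.20% for TPM1, 5.70% for TPM2, 60.8% for CALD1 and 3.00% for VCL. These points are mostly not gene starts, and other gene starts of GRCh37 were not analysed here, so nearness to a start in general is not part of the comparison. With only the top 25% of scores, the TPM1 and VCL summits at the start stayed, while for TPM2 the nearest was the one at 14.3 kb from the start and 27.3% of points were as near.

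**Figure D2:**
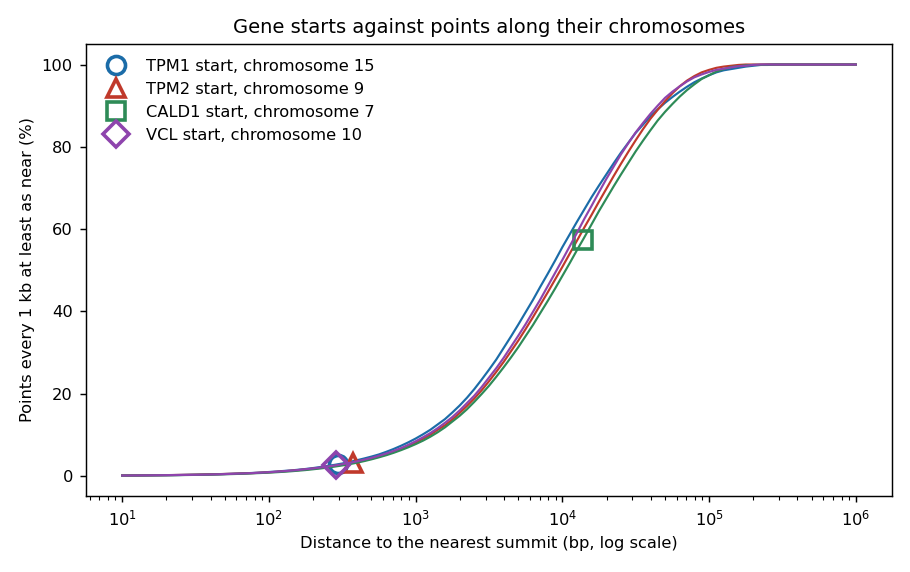
Share of points every 1 kb along a chromosome (vertical axis, %) that have a summit within the distance on the horizontal axis (bp, log scale), 1 curve per chromosome. The open markers for TPM1, TPM2 and VCL lie at 2.83%, 3.20% and 2.56%, near the foot of the curves, and that of CALD1 lies at 57.3%.

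The starts of both tropomyosin genes lay between a pair of close summits. At TPM1 the pair was 297 bp upstream and 1001 bp inside, 1298 bp apart, and at TPM2 it was 1158 bp upstream and 372 bp inside, 1530 bp apart. The median distance between adjacent summits was 10.9 kb on chromosome 15 and 11.6 kb on chromosome 9. Of all stretches between adjacent summits, 91.7% on chromosome 15 were at least as long as that of the TPM1 pair. On chromosome 9, 90.3% were at least as long as that of the TPM2 pair. A summit within 1.5 kb on both sides was found at 0.66% of points on chromosome 15 and at 0.574% on chromosome 9. The pair differed in which side was stronger, with the upstream summit higher at TPM1 (14.1 and 5.14) and the inner one higher at TPM2 (8.13 and 5.86). At VCL the summit at the start stood alone, with its neighbours 7.89 kb upstream and 11.0 kb downstream. This arrangement was picked out, and the distance of 1.5 kb set, after the positions were seen.

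The density of summits ranged from 178 per Mb at TPM2 to 18.9 per Mb at CALD1. At TPM2, 5 summits in 28.1 kb gave 178 per Mb (exact Poisson 95% interval 57.8 to 416), against 74.0 per Mb within 1 Mb on each side and 42.7 per Mb on chromosome 9. At CALD1, 4 summits in 211.3 kb gave 18.9 per Mb (5.16 to 48.5), against 43.0 within 1 Mb and 40.8 on chromosome 7. TPM1 had 60.9 per Mb (12.6 to 178), against 47.5 within 1 Mb and 47.9 on chromosome 15. VCL had 56.3 per Mb (24.3 to 111), against 57.5 within 1 Mb and 44.4 on chromosome 10. The intervals of TPM2 and CALD1, the densest and the sparsest of the 4 loci, did not overlap. Those of TPM1 and VCL overlapped with both. The contrast includes the flanks, since only 2 of the 5 summits of TPM2 lay in the gene, against all 4 of CALD1. Without flanks the densities were 248 per Mb for TPM2 and 20.9 for CALD1, and no interval was computed for these. The interval of TPM2 lay above the density of its chromosome but took in that of its surroundings, and the other 3 intervals took in both. The intervals cover counting error only and treat summits as independent.

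**Figure D3:**
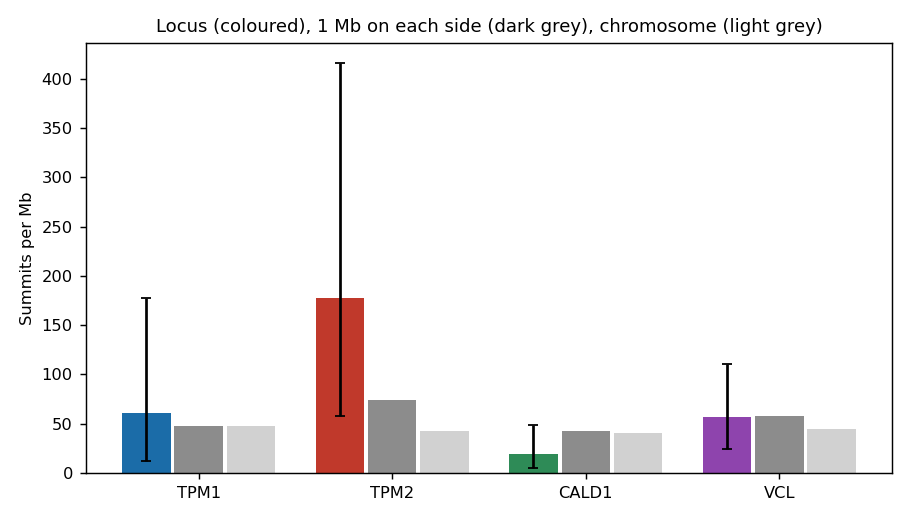
Summits per Mb in each locus (coloured bars, with exact Poisson 95% intervals), within 1 Mb on each side (dark grey) and on the whole chromosome (light grey). TPM2 is at 178 and CALD1 at 18.9 per Mb, and TPM1 (60.9) and VCL (56.3) are set against 47.5 and 57.5 in their surroundings.

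Set beside every window of equal length laid end to end along the covered part of its chromosome, TPM2 with all its summits had the smallest share of windows as rich as the locus. Of 4379 windows on chromosome 9, 2.67% held at least the 5 summits of TPM2, and 39.8% held none. This share was 5.68% for the gene alone (2 summits), 7.06% with a flank of 5 kb (3 summits) and 27.2% over the top 25% of scores (1 summit). Of 1672 windows on chromosome 15, 40.7% held at least the 3 summits of TPM1. Of 929 windows on chromosome 10, 33.7% held at least the 8 of VCL, and of 734 windows on chromosome 7, 74.5% held at least the 4 of CALD1. In all, the 4 loci held 20 summits, against 18.5 from the mean density of their chromosomes, a ratio of 1.08 (exact Poisson 95% interval 0.66 to 1.67). When lower scores were left out and only the top 25% was kept, TPM1 had the smallest share, with 12.9% of windows holding at least its 2 summits, and the shares were 36.9% for CALD1 and 43.9% for VCL. The ratio of the locus to the mean window was then 3.37 for TPM1 (1.27 over all scores), 3.09 for TPM2 (4.17), 1.29 for CALD1 (0.464) and 1.19 for VCL (1.27).

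**Figure D4:**
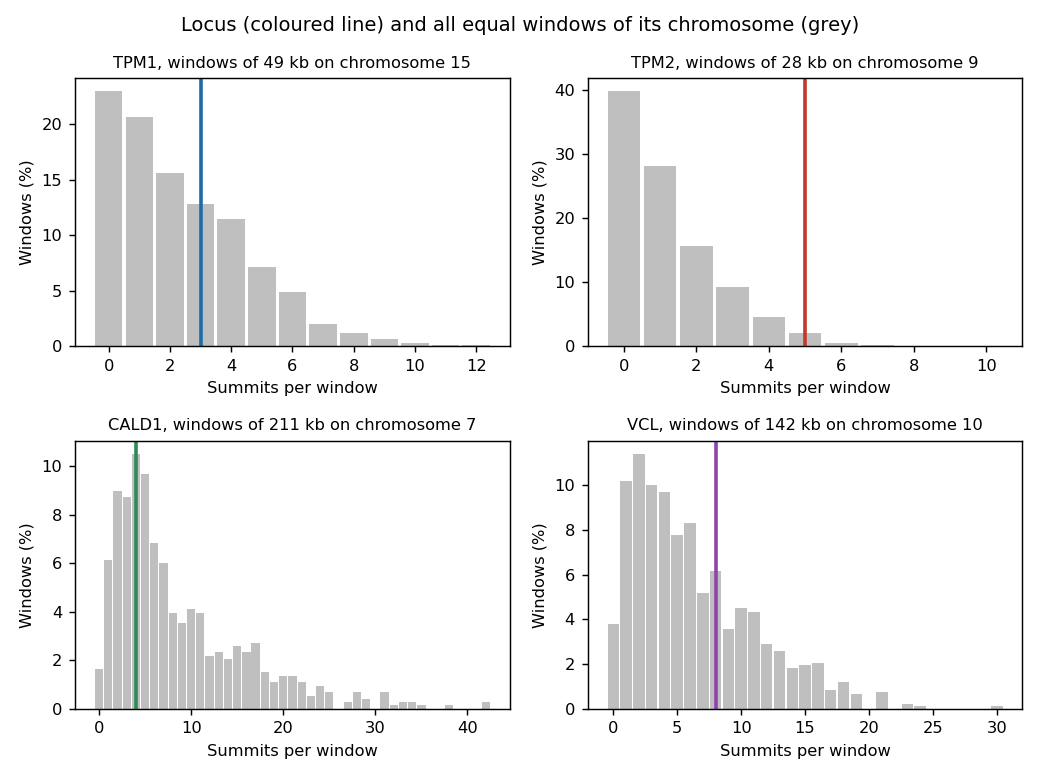
Share of windows (vertical axis, %) by the number of summits they hold (horizontal axis), for all windows of the locus's length on its chromosome (grey), with the locus as a coloured line. The line of TPM2 at 5 summits has 2.67% of windows at or beyond it (27.2% where only the top 25% of scores is counted, which is not drawn), and those of TPM1, CALD1 and VCL lie inside the bulk.

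Around each start, summits were counted in 20 bins of 50 kb, out to 500 kb on each side. The bins held from 1 to 6 summits for TPM1 (median 2.5), from 0 to 9 for TPM2 (median 3.5), from 0 to 7 for CALD1 (median 2) and from 0 to 9 for VCL (median 3.5). The bin that begins at the start held 3 summits for TPM1, 8 for TPM2, 1 for CALD1 and 4 for VCL. The TPM2 gene is 8.065 kb long and held 2 summits, so most of its bin lies past the 3′ end. The bin just upstream of TPM2 held 7. TPM1, with 29.274 kb, also ends inside its bin.

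**Figure D5:**
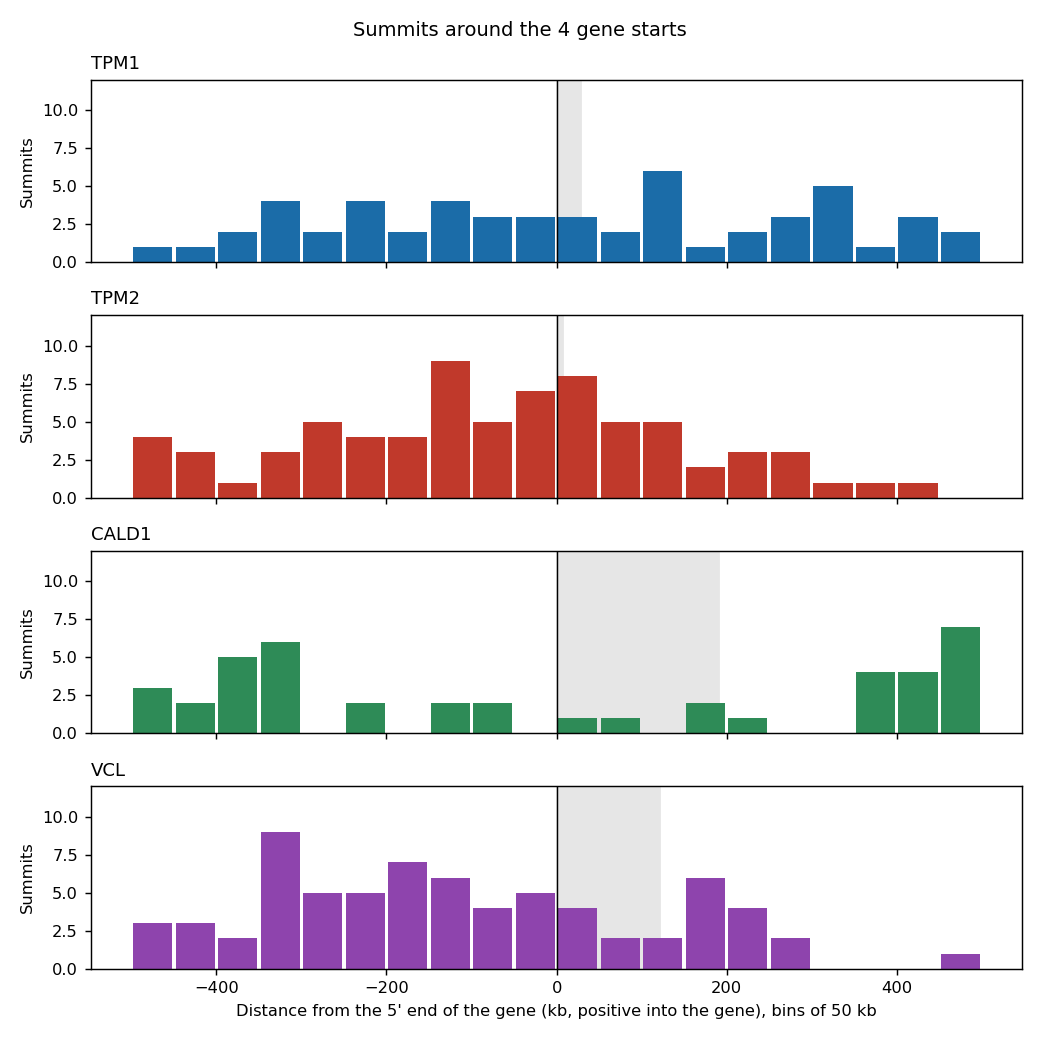
Number of summits in bins of 50 kb (vertical axis) by distance from the 5′ end of each gene (kb, positive into the gene), with the gene shaded. The bin that begins at the start holds 3 summits for TPM1, 8 for TPM2, 1 for CALD1 and 4 for VCL, and no bin holds more than 9. For TPM2 most of that bin lies past the 3′ end of the gene.

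The highest-ranked of the 20 summits stood at rank 5550 of the list. The lowest score was 3.98 and the highest 20.8, and the median of the 20 was 10.2, against 8.50 over the list. In the top 25% of scores, a score of 12.2 or more, were 8 of the 20, or 40%, with an exact Clopper-Pearson interval of 19.1% to 63.9%. Over the whole list, ties included, it was 26.3%. The 8 were 3 of 4 at CALD1, 2 of 3 at TPM1, 2 of 8 at VCL and 1 of 5 at TPM2. The interval treats the 20 summits as independent and does not allow for their grouping by locus. The share over that of the list was 1.52, and it was 0.999 for the top 10%, which held 2 of the 20. TPM2, the densest locus, had the lowest median score at 6.18, and CALD1, the sparsest, the highest at 15.8. These are medians of 5 and 4 summits. Of the other loci, TPM1 was slightly denser than VCL and had the higher median (14.1 against 10.2). A relation of density and score was not tested.

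Some of the 20 summits carried a score that recurs in the list. Of the 20, 7 had a score shared by at least 150 peaks, or 35%, with an exact Clopper-Pearson interval of 15.4% to 59.2%. In the list it was 29.4%. All 7 lay at VCL, with 4 of 8, and at CALD1, with 3 of 4, and none at TPM1 or TPM2. The interval does not allow for this grouping by locus. The score of 20.8 at CALD1, the highest of the 20, was shared by 159 peaks, that of 13.2 by 1321 and that of 9.22 by 3234. At VCL the score of 10.2 was shared by 2733 peaks, that of 4.82 by 1469 and that of 15.3 by 793. The summits at the starts of TPM1, TPM2 and VCL had scores shared by 5, 2 and 11 peaks. Of the 12 summits with no other summit within 5 kb, 6 had a repeated score, against 42.2% of such summits in the list. Of the 8 with a closer neighbour, 1 had a repeated score, against 8.59% of such summits in the list. What a repeated score stands for was not tested.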

How the data were processed

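The authors deposited 1 list of peak summits, giving the position and a peak score for each, per the file headers. Each interval is 1 bp wide and its end was taken as the summit. The deposited score has no stated unit and was used only to rank summits. The name of the list points to the peak caller MACS. The caller's version, threshold and control, and the aligner, were not given in the sources used here. Tools and builds in the submitters' processing notes are CASAVA 1.4, mm9 and GRCh38.p12. On chromosomes 7, 9, 10 and 15, 464 summits lie past a chromosome end of GRCh38 and 0 past one of GRCh37. Positions were therefore taken as GRCh37, 1-based, and other builds were not checked. Gene spans are GRCh37 spans given for these genes; strands, gene order and promoter sequences come from RefSeq tables of GRCh38.p14. No coordinates were converted, and other actin genes were not placed. Sequencing depth is not given, so the precision is that of the counts of summits.

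Counts carry exact Poisson and shares exact Clopper-Pearson 95% intervals (scipy 1.17.1). Both kinds treat the summits or points counted as independent. Every window of equal length was counted in place of random windows, and no p-value was computed, since peaks are not replicates. The counting was tested on simulated lists. The genes named are the 4 of the set, with all their summits. The genes and measures were chosen with earlier results of these data known; the paired summits, the GC box, the 1-mismatch CArG box and the points within 1 Mb were added after seeing the data.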

Additional observations from a re-analysis of the deposited data

How the results depend on the processing

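Of 50 alternatives over 13 results, 43 stayed within the interval of the main value and 7 did not. The 43 include the use of the start column for each locus. That is a shift of 1 bp, which could hardly change a count and left every ratio as it was. This tally depends on the width of the intervals. The ratio of the TPM1 locus had a wide one (0.262 to 3.71), so a change from 1.27 to 3.37 stayed within it. The share of points for VCL had a narrow one (2.48% to 2.65%), because it rests on many points, so 2.68% fell outside. These are all the points of a grid and not independent draws. The intervals of such shares therefore do not measure how uncertain the shares are. With the top 25% of scores alone, the ratio of the CALD1 locus to the mean window was 1.29, and the share of points with a summit as near as at the gene start was 0.726% for TPM1, 27.3% for TPM2, 25.8% for CALD1 and 0.681% for VCL; fewer summits enter these values by construction. With points every 10 kb the share was 3.48% for TPM2 and 2.68% for VCL. Over flanks from 0 to 20 kb, shifted windows, kept peak-free stretches, all autosomes, the start column and top scores, the ratio to the mean window ran from 3.09 to 5.80 for TPM2, from 0.464 to 1.29 for CALD1, from 1.21 to 3.37 for TPM1 and from 1.19 to 1.48 for VCL. Against surroundings of 500 kb to 5 Mb the ratio ran from 2.41 to 3.17 for TPM2 and from 0.43 to 0.478 for CALD1. It ran from 1.15 to 1.28 for TPM1 and from 0.853 to 0.979 for VCL. The ratio of VCL was thus below 1 against its surroundings and above 1 against the mean window. No paired analysis was possible because there is 1 library per antibody and the list ties no value to either. For the same reason there was no replicate to omit. Read depth is unknown, so its effect on these counts is unknown too.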
